A study of Mus musculus with 12 samples.

Results

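The clustered protocadherin genes were examined in an ATAC-seq data set, which reads open chromatin through the cuts of a transposase. Members were all peaks whose nearest gene, as the authors' tables name it, was a Pcdha, Pcdhb or Pcdhg gene. There were 86 such peaks among 281974: 28 of 91770 in microglia, 40 of 107627 in NeuN+ nuclei and 18 of 82577 in Olig2+ nuclei. Libraries came from the forebrain of C57BL/6 mice aged 4 months, either wild type (WT) or SgshKO, which lack the lysosomal heparan sulfate-degrading enzyme N-sulfoglucosamine sulfohydrolase. The labels do not give the type of Sgsh allele. Microglia were sorted as live cells with CD11b, low CD45 and CX3CR1. Neuronal nuclei were sorted as NEUN+ without PU.1 and OLIG2, and oligodendrocyte-lineage nuclei as OLIG2+ without PU.1 and NEUN, both after light formaldehyde fixation. Each of the 6 groups had 2 libraries. Nothing in the labels says that libraries came from separate animals, so p-values measure only the spread between these libraries, which may be technical.

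Clustered protocadherins are cadherin-family adhesion proteins that give neurons a surface identity and guide dendrite self-avoidance and axon tiling. Their genes lie in 3 neighbouring arrays. In the alpha and gamma arrays, each variable first exon has its own promoter and is spliced to constant exons shared by the array, whereas beta genes consist of single coding exons. The variable alpha, beta, gamma A and gamma B promoters are chosen at random in single neurons, through DNA methylation and CTCF and cohesin loops to distant enhancers. The C-type isoforms, Pcdhac1, Pcdhac2 and Pcdhgc3 to Pcdhgc5, are expressed more uniformly. Most knowledge of the family comes from neurons.

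In the RefSeq gene table of GRCm38.p6, the 58 genes of the family spanned chromosome 18 from 36930285 to 37841873 (mm10, the build of the authors' coordinates): 14 alpha, 22 beta and 22 gamma genes, among the latter the pseudogene Pcdhgb8. All members lay in that span. It also held 3, 4 and 1 peaks of the microglia, NeuN+ and Olig2+ tables that were named for Taf7 or Mir6979. Values are tags per peak, scaled by the authors to 10000000 tags per library. Library totals were 10771659 to 11804222 tags in microglia, 14326703 to 17706971 in NeuN+ and 15044194 to 19555924 in Olig2+ nuclei. A member peak held a median of 22, 21 and 20.5 reads per library in the 3 tables, with ranges of 0 to 285, 2 to 169 and 2 to 164, so counting error was large for the lower ones. The sorts showed their own marker genes: peaks within 1000 bp of a start site were present for 7 of 8 microglia genes in microglia, 8 of 8 neuron genes in NeuN+ and 7 of 7 oligodendrocyte genes in Olig2+ nuclei. Microglia markers had a peak for 1 of 8 genes in either sort of nuclei. Other lists were less separate. Neuron markers had a peak for 5 of 8 genes in Olig2+ nuclei and 2 of 8 in microglia. Oligodendrocyte markers had one for 3 of 7 in both microglia and NeuN+ nuclei, and precursor markers for 4 of 5 and 3 of 5.

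The open positions differed by sort. In microglia all 28 members were gamma peaks, and none was named for an alpha or beta gene. Of the 19 gamma A and gamma B genes, 15 had a peak in microglia and 14 had one within 1000 bp of the start site. In NeuN+ nuclei the corresponding number was 1 gene, Pcdhga12, and in Olig2+ nuclei 3, Pcdhga1, Pcdhgb8 and Pcdhga12, of which Pcdhga1 had peaks only upstream, at -6056 and -6355 bp from its TSS. NeuN+ nuclei instead had 24 gamma C peaks, against 7 in microglia and 9 in Olig2+ nuclei, and 11 alpha C peaks, against 0 and 3. No peak of the 3 tables was named for any of the 12 variable alpha genes or for 21 of the 22 beta genes. Pcdhga12, Pcdhgc3, Pcdhgc4 and Pcdhgc5 were the 4 genes with a peak in every sort. Peaks were called separately in each sort and at different depths, so a gene without a peak is not shown to be closed there. The genes are also close copies of each other. How multiply mapped reads were treated is not given in the sources used here, which leaves the assignment of reads to single paralogs uncertain.

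**Figure D1:**
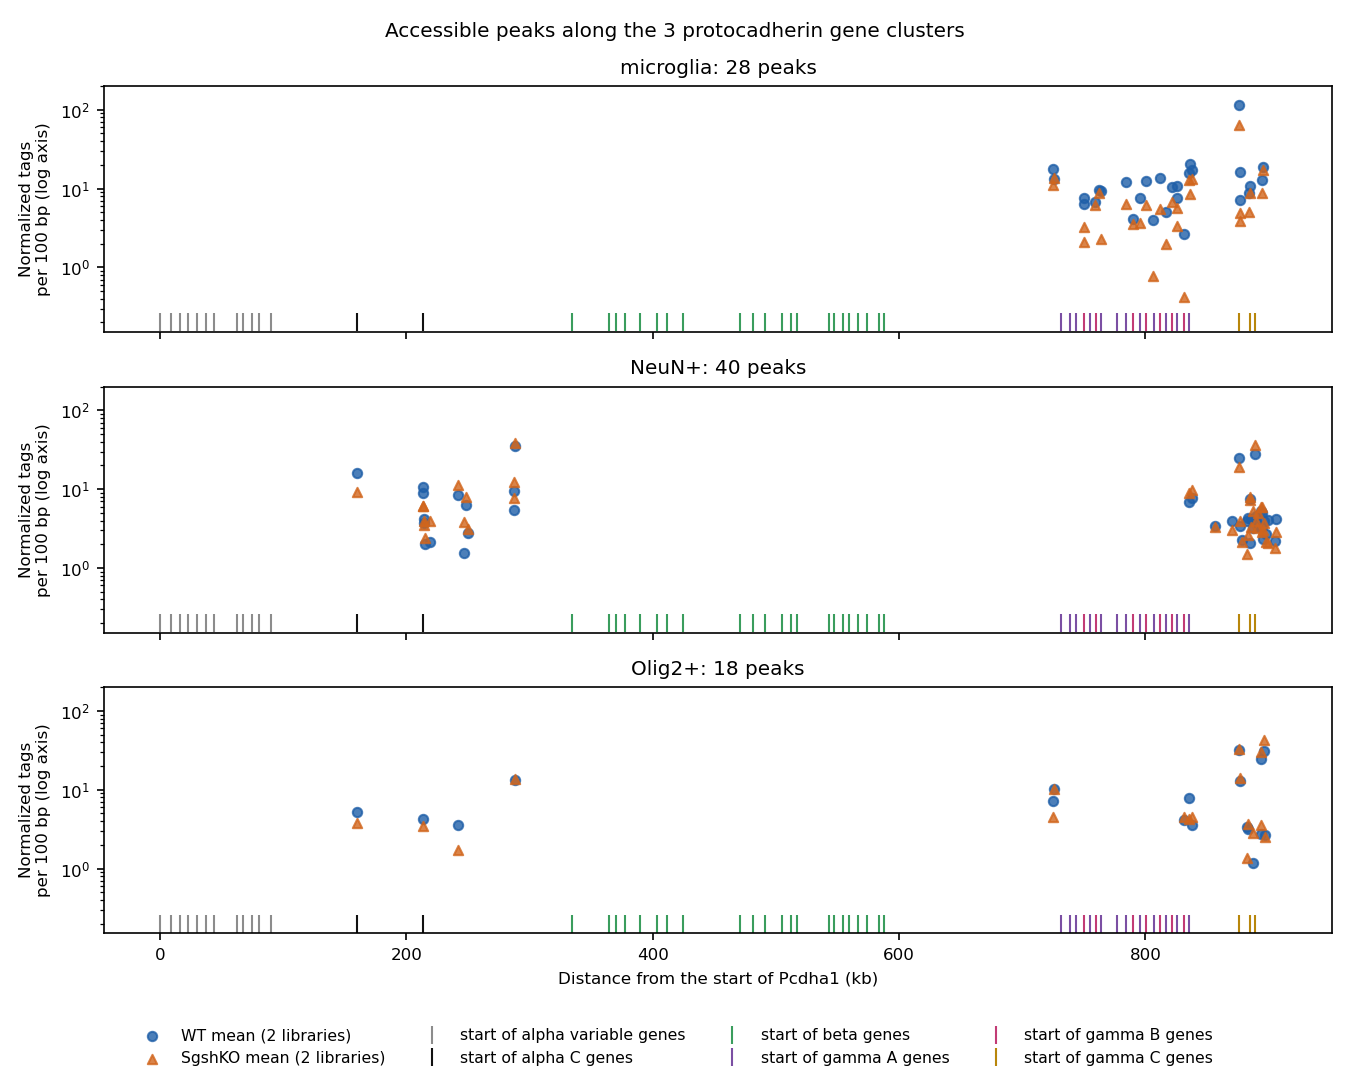
Mean normalized tags per 100 bp (log axis) of each protocadherin peak against its distance in kb from the start of Pcdha1, one panel per sort, with circles for the mean of 2 WT and triangles for the mean of 2 SgshKO libraries; coloured ticks mark gene starts. Microglia have 28 peaks, all at the gamma array, while the 40 NeuN+ and 18 Olig2+ peaks also lie at the C-type alpha genes and between the alpha and beta arrays.

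By annotation, 16 of the 28 microglia peaks were at promoters, 2 in 5' UTRs, 6 in exons and 4 in introns. In NeuN+ nuclei 6 of 40 were at promoters and 20 in introns, and in Olig2+ nuclei 4 and 10 of 18. Counting an overlap of at least 1 bp, 7 microglia members (25% of them) overlapped 7 NeuN+ members (17.5%). Over all peaks of these tables the shares were 32.9% and 27.9%. Between microglia and Olig2+ nuclei, 6 overlapped, which was 21.4% of the first list and 33.3% of the second, against 29.8% and 32.8% of all peaks. In the nuclei, 14 NeuN+ members (35.0%) overlapped 13 Olig2+ members (72.2%), against 31.7% and 41.3% of all peaks.

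The member with most tags per length in microglia was the Pcdhgc3 promoter (chromosome 18, 37806254 to 37806464, centred 51 bp before the TSS). Pcdhgc3 is a C-type isoform that acts in dendrite arborization of cortical neurons. The WT microglia libraries had 116 and 114 tags per 100 bp there. WT NeuN+ nuclei had 24.7 and 25.1, and the Olig2+ ones 30.9 and 33.2. The order of these levels was microglia, Olig2+ nuclei and NeuN+ nuclei, with no overlap between the WT libraries of neighbouring sorts. These levels are set side by side without a test, because the tables hold separately called peaks. They are per total tags, and the share of tags in peaks differed by sort. It was 55.8% and 48.7% in WT microglia, 26.7% and 25.9% in NeuN+ and 31.8% and 31.8% in Olig2+ nuclei. Differences between sorts may therefore not hold per tag in peaks. A second Pcdhgc3 peak in exon 1, centred 800 bp past the TSS in microglia, had 18.1 and 14.8 tags per 100 bp in WT microglia, 11.2 and 14.9 in Olig2+ and 2.51 and 4.29 in NeuN+ nuclei. Per total tags, the microglia and Olig2+ libraries were close there, the NeuN+ libraries lower. At Pcdhga12, the last of the variable gamma genes, the 5' UTR peak had 20.1 and 11.6 tags per 100 bp in WT microglia, 6.53 and 7.21 in NeuN+ and 8.00 and 7.66 in Olig2+ nuclei.

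**Figure D2:**
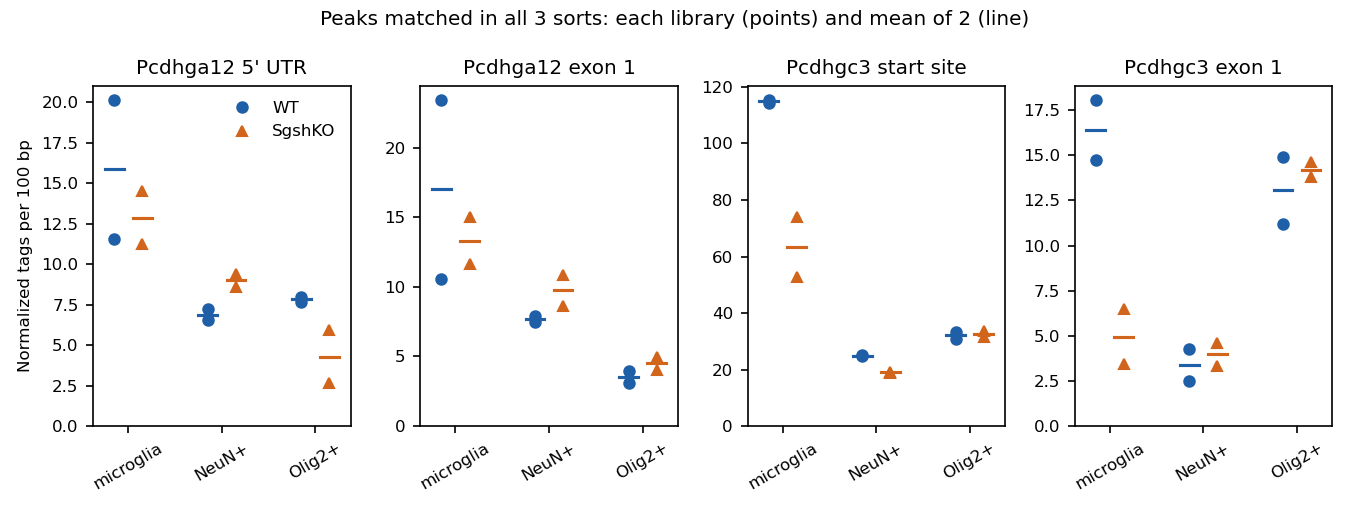
Normalized tags per 100 bp of the 4 protocadherin peaks matched in all 3 sorts (vertical axes start at 0 and differ between panels); circles are WT and triangles SgshKO libraries, lines are means of 2. At the Pcdhgc3 start site the microglia libraries lie above those of both nuclei sorts, and the 2 SgshKO microglia libraries lie below the 2 WT ones.

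What loss of Sgsh was accompanied by in microglia was the first comparison. Microglia of SgshKO mice had lower accessibility at the gamma array: 27 of 28 members had a negative log2 change, and 7 fell by the test, none rose. Omitting WT replicate 1 left 21 negative members and omitting SgshKO replicate 2 left 23, while omitting either of the other two libraries left 27. The tags of all members summed to 1030 and 836 in the WT libraries, against 641 and 472 for SgshKO. Both SgshKO sums lay below both WT sums. Peaks were merged over WT and SgshKO, so a peak nearly empty in SgshKO may be listed through WT alone, which favours negative changes. The median log2 change was -0.88, against -0.08 over all microglia peaks, of which 55.3% were negative, and -0.14 over the peaks of chromosome 18. Members were weaker peaks, with a median of 20.2 mean tags against 30.3 over all peaks. Weak peaks of this table leaned negative: without the lowest 25% of peaks the median of all peaks was -0.01. Of the 17 members then left, 16 were negative. A peak was called where limma, fitted to log2(tags + 1) of the whole table, gave a Benjamini-Hochberg adjusted p below 0.05. Changes are on that scale, which understates those of low peaks. Of all microglia peaks 7.37% were called, 2.33% lower and 5.05% higher in SgshKO. In 21 of 28 members both SgshKO libraries were below both WT ones, against 28.1% of all peaks, and in none above, against 23%. In bulk material, fewer cells with an open site and a less open site in each cell cannot be told apart.

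The Pcdhgc3 promoter was the best-covered of the 7, with 120 to 285 reads per library. It had 244 and 241 normalized tags in WT and 156 and 111 in SgshKO microglia. The libraries did not overlap, and the WT pair was nearly equal. The log2 change was -0.88 ± 0.28 (SE, adjusted p = 0.0480, limma). The same gene's exon 1 peak (37807110 to 37807310) had 36.3 and 29.7 tags in WT and 6.93 and 13.0 in SgshKO libraries, a log2 change of -1.68 ± 0.45 (adjusted p = 0.0165). Another Pcdhgc3 peak between them, 353 bp past the TSS, had the same direction (-0.85 ± 0.43) but was not called. Of the other gamma C genes, Pcdhgc4, which is required for survival after birth, had 2 peaks at -0.82 and -0.28, and Pcdhgc5 had 2 peaks, in an exon 2 and an intron 2, at -0.52 and -0.21, none called.

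Among the variable gamma genes, 20 of 21 peaks had a negative change and 5 were called, all lower. Each of the 16 peaks within 1000 bp of a gamma A or gamma B start site was negative, with a median of -0.998. Pcdhga5, whose peak at 37694485 to 37694686 covers the start site, had 18.2 and 19.5 tags in WT and 1.73 and 7.43 in SgshKO, a log2 change of -2.05 ± 0.53 (adjusted p = 0.0134). At the Pcdhgb1 promoter (37680139 to 37680369) WT libraries had 19.0 and 16.1 tags and SgshKO ones 5.19 and 4.64, a change of -1.65 ± 0.50 (adjusted p = 0.0338). At both of these peaks the groups were far apart, at 5 to 23 reads in all but 1 library, the first SgshKO one at Pcdhga5, which had 2. A second Pcdhgb1 promoter peak, centred 50 bp past the TSS, had 18.2 and 11.9 tags in WT and 8.66 and 6.50 in SgshKO and was not called (-0.88, adjusted p = 0.296).

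Pcdhga9 and Pcdhgb8 were called at still lower levels. The Pcdhga9 promoter had 8.64 and 10.2 tags in WT and 0 and 3.71 in SgshKO libraries, a fitted change of -2.26 ± 0.61 (adjusted p = 0.0177). Pcdhgb8 had 5.19 and 6.78 in WT, against 0 and 1.86 for SgshKO, with -2.04 ± 0.61 (adjusted p = 0.0320). A library with 0 reads is compatible with up to 2.60 normalized tags, the value of 3 reads. These fitted changes therefore rest on 0 to 12 reads per library and on the pseudocount of 1. Both peaks, nearly empty in SgshKO, may have been listed through WT alone, which favours a lower SgshKO value. The seventh called peak lay in exon 1 of Pcdhga12, 1327 bp past the TSS, with 50.1 and 46.6 tags in WT and 25.97 and 14.9 in SgshKO (-1.25 ± 0.40, adjusted p = 0.0460). Its neighbours in the same gene, the 5' UTR peak and a peak 2720 bp past the TSS, each had -0.25 and overlapped between genotypes.

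The remaining variable gamma start sites had smaller or less certain differences. Pcdhgb6 had 38.9 and 22.9 tags in WT and 16.5 and 8.36 in SgshKO (-1.27 ± 0.46, adjusted p = 0.0815), and the libraries did not overlap. It was called with in-peak scaling, median-of-ratios scaling, the replicate block and edgeR (adjusted p = 0.0204, 0.0411, 0.0162 and 0.0329). Pcdhga7, Pcdhga8, Pcdhga10, Pcdhga11 and Pcdhgb5 had changes between -1.21 and -0.92 without a call, Pcdhgb7 had -0.61, and Pcdhgb2 and Pcdhgb4 had -0.07 and -0.11. The 1 positive member was an intronic peak at -6062 bp from the Pcdhga1 TSS, with 26.8 and 28.0 tags in WT and 28.6 and 27.9 in SgshKO (0.04 ± 0.40). Members farther than 1000 bp from a start site had a median of -0.25 (7 peaks), against -0.93 for the 21 nearer ones. Of the nearer ones, 18 were lower in both SgshKO libraries (25.1% of all peaks near start sites). The median over all microglia peaks near start sites was 0.03. Those peaks were stronger, with a median of 49.0 mean tags against 16.2 for the 21 members, so the sets differ in level as well as in gene family. Across the 28 members, the log2 change had a Pearson correlation of 0.50 and a Spearman correlation of 0.49 with the log2 mean level, and of 0.004 and 0.01 with position. Those points share the same 4 libraries.

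**Figure D3:**
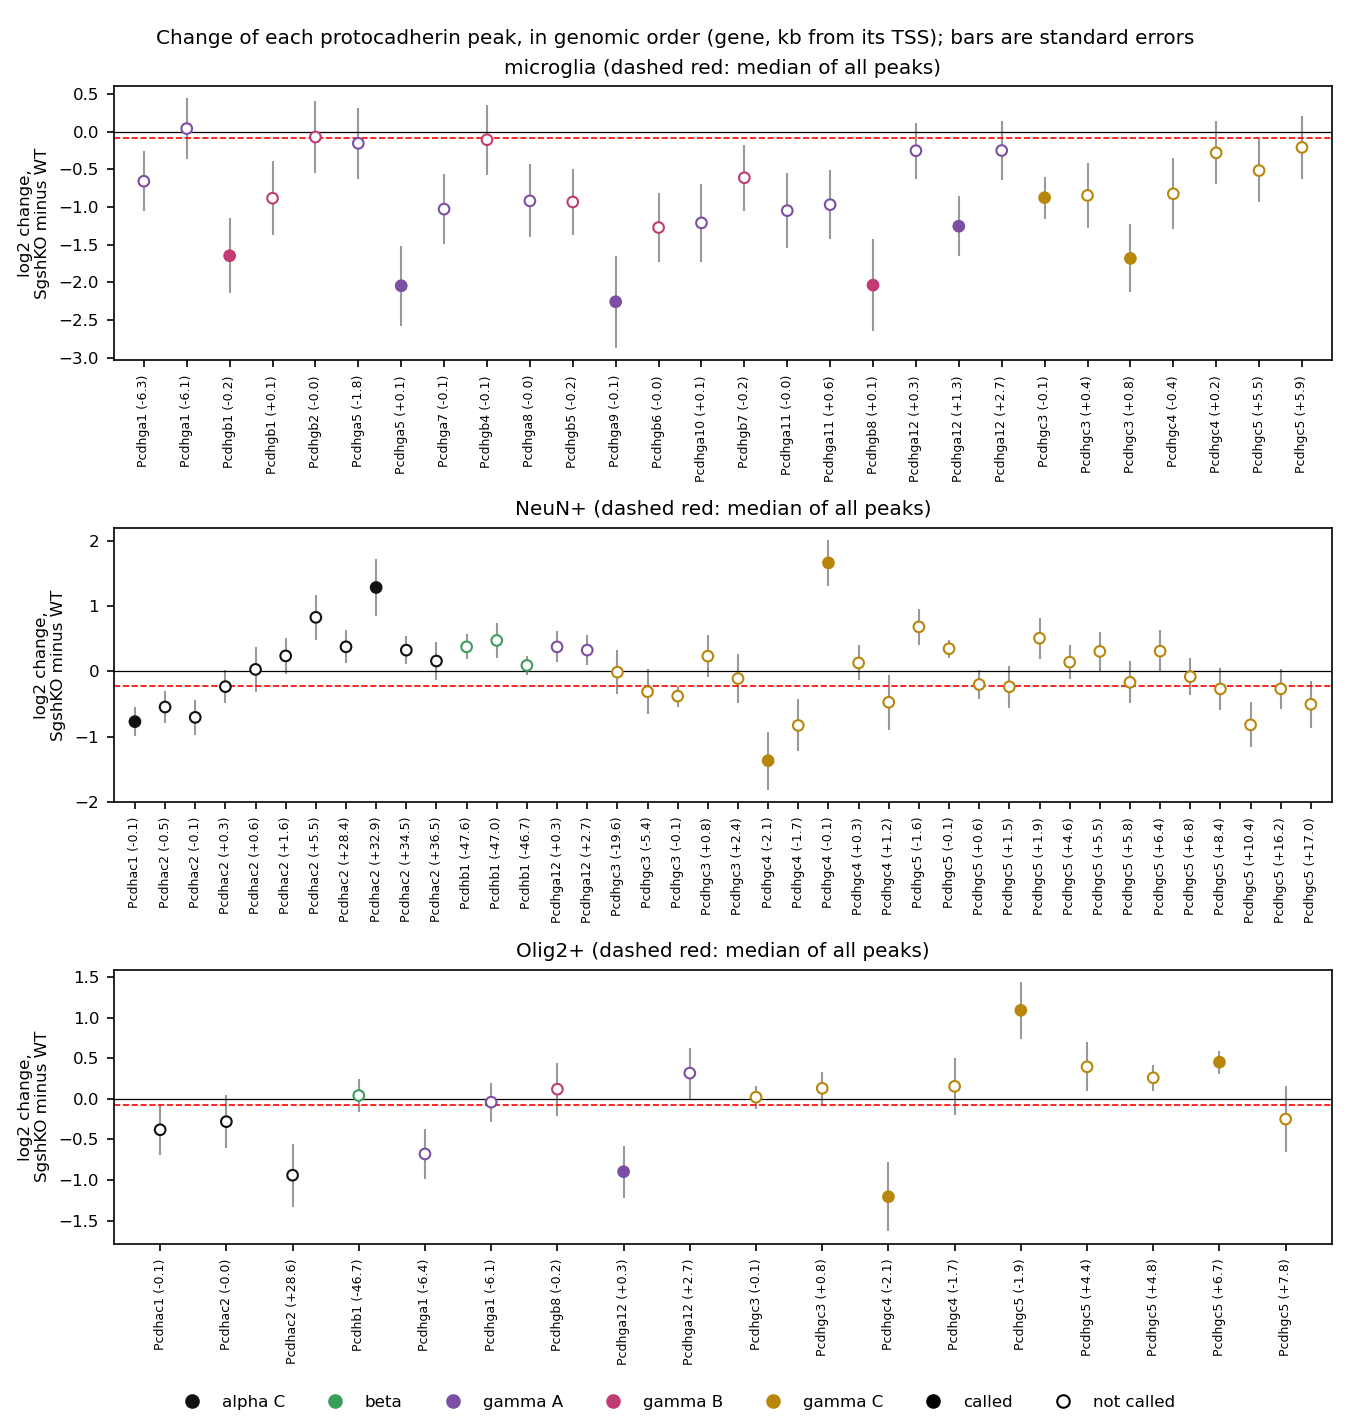
Log2 change (SgshKO minus WT, on the log2(tags + 1) scale) of each protocadherin peak in genomic order, with standard errors; filled points passed an adjusted p under 0.05, colours mark the gene group, and the dashed line is the median of all peaks in that sort. In microglia 27 of 28 points lie below 0 and 7 are filled, while NeuN+ and Olig2+ points lie on both sides with 4 filled each.

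Leaving out libraries changed the number of calls. No member was called by limma without WT replicate 1 or without WT replicate 2 (3 and 5 at an unadjusted p under 0.05), when 1.26% and 0.607% of all microglia peaks were called. There were 12 calls without SgshKO replicate 1, when 20.5% of all peaks were called (14.1% lower), and 5 without SgshKO replicate 2, when 18% were (5.15% lower). These member calls were all lower, and the median change ranged from -1.05 to -0.54 over these 4 fits. With edgeR on recovered reads 8 members were called (15.5% of all peaks), and with DESeq2 1 was (5.28% of all peaks). The share of tags in peaks was 55.8% and 48.7% in WT microglia, against 67.4% and 53.7% for SgshKO. As a share of the tags in peaks, the members had 185 and 172 per 1000000 in WT and 95.0 and 87.9 in SgshKO. The groups were further apart on this scale, and 12 members were called, all lower, when 15.8% of all peaks were called, 10.3% lower and 5.56% higher.

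Markers of other cell types were summed over peaks within 1000 bp of their start sites in the same microglia libraries. Those of oligodendrocyte precursors (peaks for 4 of 5 genes, Cspg4 without one) had 211 and 177 tags in WT and 125 and 112 in SgshKO, and so were lower in both SgshKO libraries. Neuron markers (2 of 8 genes with a peak) had 114 and 134 in WT and 161 and 116 in SgshKO, and Rbfox3, Snap25, Syt1, Map2, Gad1 and Gad2 had no peak. Astrocyte markers (3 of 6 genes) had 125 and 86.4 in WT and 89.2 and 75.2 in SgshKO, and endothelial ones (3 of 5) 283 and 236 against 253 and 197, overlapping values in both lists. Oligodendrocyte markers (3 of 7 genes) were higher in both SgshKO libraries, with 353 and 299.9 tags against 269.6 and 239 in WT. Their part in the protocadherin values was not tested.

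**Figure D4:**
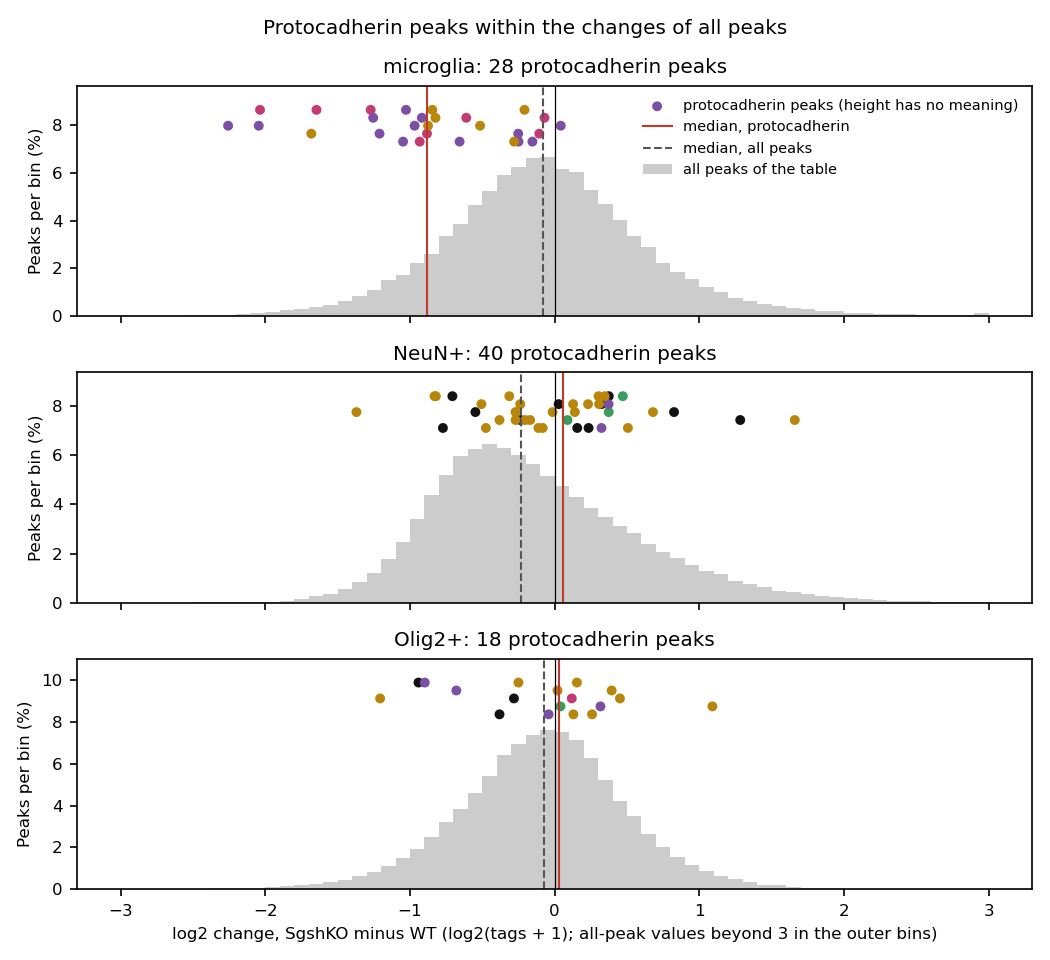
Log2 changes of all peaks of each table (grey bars, percent of peaks per 0.1 bin) and of the protocadherin peaks (points, coloured by gene group as alpha C black, beta green, gamma A purple, gamma B pink and gamma C gold; their height has no meaning). The protocadherin median (solid line) is -0.88 in microglia, well left of the median of all peaks (dashed line, -0.08), and close to 0 in NeuN+ and Olig2+ nuclei.

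In NeuN+ nuclei the same comparison gave no common direction. Of 40 members 21 had a positive and 19 a negative log2 change, with a median of 0.06, against -0.23 over all NeuN+ peaks. Only 4 members were called, 2 higher and 2 lower, when 29.8% of all NeuN+ peaks were, 10.2% higher and 19.6% lower. In 12 members both SgshKO libraries were above both WT ones and in 8 below, against 24.1% and 44.4% of all peaks. Within 1000 bp of a start site 5 of 12 members were below, against 70.9% of all such peaks. The members together had 749 and 713 tags in WT nuclei, against 757 and 769 for SgshKO.

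Of the C-type alpha genes, Pcdhac1 was lower at its start. The Pcdhac1 promoter (37089878 to 37090099) had 36.3 and 33.9 tags in WT and 24.4 and 16.5 in SgshKO, and fell with a log2 change of -0.77 ± 0.23 (adjusted p = 0.0163, limma). Its libraries did not overlap. Pcdhac2, which acts in the tiling of serotonergic axons, had 2 promoter peaks that were not called: 23.8 and 23.7 tags against 18.2 and 13.97 (-0.55, adjusted p = 0.0922), and 26.6 and 16.9 against 13.96 and 11.4 (-0.71, adjusted p = 0.0581). Of the 5 alpha C peaks within 1000 bp of a TSS, 4 were negative, with a median of -0.55. That was close to the median of -0.53 over all NeuN+ peaks near start sites, of which 86.0% were negative.

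The 6 alpha C peaks farther away, all named for Pcdhac2, were each positive, with a median of 0.35. One of them, in intron 3 (37176728 to 37177001), had 1.70 and 6.78 tags in WT and 7.68 and 13.3 in SgshKO and was called higher (1.28 ± 0.44, adjusted p = 0.0366). It rested on 3 to 21 reads, and without WT replicate 1 the change was 0.52 (adjusted p = 0.419). The highest of these intronic peaks, at 37178256 to 37178689, had 28.9 and 25.98 tags in WT and 29.3 and 40.6 in SgshKO (0.32, adjusted p = 0.249).

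The highest member of the NeuN+ table lay between the arrays. Its nearest start is that of Pcdhb1, but at 37218209 to 37218452 it is at -46668 bp from that TSS and 29312 bp past the end of the alpha array, inside intron 1 of a readthrough transcript. A known enhancer of the alpha array, HS5-1, is in the interval between the alpha constant exons and the beta genes; the tables do not label it, and the peak was not matched to it here. It had 95.7 and 77.9 tags in WT and 81.7 and 103 in SgshKO, overlapping values with a log2 change of 0.09 ± 0.15 (adjusted p = 0.660). A pair of smaller peaks beside it, at 37217235 to 37217543 and 37217851 to 37218083, had 27.2 and 30.5 against 39.1 and 36.2 tags, and 14.2 and 11.3 against 17.5 and 18.4. In each, the SgshKO libraries were above the WT ones, and neither was called (adjusted p = 0.147 and 0.179). The same site was a peak in Olig2+ nuclei, with 31.6 and 28.6 tags in WT and 30.7 and 31.2 in SgshKO (0.04, adjusted p = 0.912), and no microglia peak was named for Pcdhb1.

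The gamma C genes held 24 of the NeuN+ members. The Pcdhgc5 promoter (37819304 to 37819569) had 81.0 and 68.9 tags in WT and 101 and 90.2 in SgshKO. The libraries did not overlap, but the change of 0.35 ± 0.14 was not called (adjusted p = 0.0622). At the Pcdhgc3 promoter the direction was the opposite, with 56.1 and 57.0 in WT and 42.6 and 43.8 in SgshKO (-0.38 ± 0.16, adjusted p = 0.0803). The Pcdhgc4 promoter (37814850 to 37815056) rose 3.53-fold, from 2.83 and 5.65 to 14.7 and 15.2 tags, a log2 change of 1.66 ± 0.35 (adjusted p = 0.00196), on 5 to 24 reads per library. The next Pcdhgc4 peak, in its 5' UTR, had 13.6 and 23.2 tags in WT and 18.2 and 20.95 in SgshKO (0.13), overlapping values. A Pcdhgc4 peak at -2096 bp from the TSS fell, with 10.2 and 7.91 tags in WT and 5.58 and 1.27 in SgshKO (-1.37 ± 0.44, adjusted p = 0.0273). Of the 18 gamma C peaks farther than 1000 bp from a start, 13 were negative, with a median of -0.20. The 2 gamma A peaks, both of Pcdhga12, were higher in both SgshKO libraries (0.37 and 0.32) and not called.

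The NeuN+ split depended on the scaling. The share of tags in peaks was 26.7% and 25.9% for WT neurons, against 21.5% and 21.2% for SgshKO. Scaling to tags in peaks moved the median of all peaks by 0.28 (log2) and gave 10 calls among the members, all higher, with a member median of 0.34 against 0.05 over all peaks. With that scaling 26.5% of all NeuN+ peaks were called, 17.6% higher and 8.86% lower, so the members' share of calls was near that of the table. Median-of-ratios scaling gave 6 higher and 1 lower (26% of all peaks called, 15% higher), quantile normalization 4 and 0 (15.6%, 9.64% higher), and edgeR 7 and 1 (27.4% of all peaks called), while DESeq2 called 1, higher (4.55% of all peaks). The Pcdhac1 promoter stayed negative in each of these but lost its call (-0.59 to -0.48 for the 3 scalings, adjusted p = 0.0685 to 0.112), and the Pcdhgc5 promoter was called higher in the 3 scalings and edgeR (adjusted p = 0.000809 to 0.00881). The Pcdhgc4 promoter was called in all 3 scalings, with edgeR and with DESeq2. Without WT replicate 1 or 2, 1 and 2 members were called, when 10.5% and 13.5% of all peaks were. Without either SgshKO library neither a member nor any other peak of the table was (8 and 2 members at an unadjusted p under 0.05). Neuron markers (8 of 8 genes with a peak) summed to 983 and 906 tags in WT nuclei, against 507 and 523 for SgshKO, lower in both SgshKO libraries. The other 5 marker lists were lower in both as well: for example, astrocyte markers (1 of 6 genes) had 137 and 127 against 86.6 and 97.8, oligodendrocyte markers (3 of 7) 144 and 128 against 68.4 and 69.8, and precursor markers (3 of 5) 65.7 and 57.6 against 34.9 and 38.1. Their part in the protocadherin values was not tested.

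In Olig2+ nuclei the members again had no common direction: 10 of 18 were positive, with a median of 0.03 against -0.07 over all Olig2+ peaks. By limma 4 were called, 2 higher and 2 lower, when 19.8% of all Olig2+ peaks were, 8.17% higher and 11.7% lower. In 5 members both SgshKO libraries were above both WT ones and in 5 below, against 26.4% and 34.9% of all peaks. Near start sites 2 of 6 were below, against 26.2% of all such peaks. The 2 that rose were both named for Pcdhgc5. The peak in an intron 2 (37826149 to 37826366, 6711 bp past the Pcdhgc5 TSS) had 68.0 and 67.0 tags in WT and 101 and 85.1 in SgshKO, a log2 change of 0.45 ± 0.14 (adjusted p = 0.0230). No member of that table had more tags on average, and its libraries did not overlap. A low peak at -1948 bp from the Pcdhgc5 TSS had 5.71 and 4.09 tags in WT and 9.84 and 13.3 in SgshKO (1.09 ± 0.35, adjusted p = 0.0267).

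A pair of peaks fell in Olig2+ nuclei. The Pcdhgc4 peak at -2113 bp had 6.74 and 7.67 tags in WT and 1.23 and 4.65 in SgshKO (-1.21 ± 0.43, adjusted p = 0.0445), on 2 to 15 reads. The Pcdhga12 5' UTR peak had 18.2 and 17.4 in WT and 13.5 and 5.98 in SgshKO (-0.90 ± 0.32, adjusted p = 0.0446), and without SgshKO replicate 2 its change was -0.37 (adjusted p = 0.470). The Pcdhgc3 promoter had 74.2 and 79.8 tags in WT and 75.6 and 80.4 in SgshKO, overlapping values with a change of 0.02 ± 0.14 (adjusted p = 0.937). At the C-type alpha promoters, Pcdhac1 had 16.1 and 10.7 against 8.61 and 11.3 tags (-0.38) and Pcdhac2 10.9 and 9.72 against 8.61 and 7.98 (-0.28), neither called. A Pcdhgb8 promoter peak, which did not overlap the one called lower in microglia, had 9.34 and 8.18 against 8.61 and 10.6 tags, overlapping values (0.12). Median-of-ratios scaling, quantile normalization and edgeR (20.1%, 16.7% and 21.6% of all peaks called) each left 2 calls, both higher, and DESeq2 left 0 (4.35% of all peaks, 1 member at an unadjusted p under 0.05). By limma no member was called without WT replicate 1 or without WT replicate 2 (4 and 3 at an unadjusted p under 0.05), when 7.47% and 7.37% of all peaks were. Oligodendrocyte marker sums (7 of 7 genes) were lower in SgshKO, 2776 and 2766 tags against 2126 and 2182. Neuron markers (5 of 8 genes) were higher in both SgshKO libraries, 454 and 435 tags against 379 and 415, as were microglia markers (1 of 8), 116 and 134 against 94.9 and 88.0, and endothelial ones (1 of 5), 8.61 and 10.6 against 3.63 and 2.56. Precursor markers (5 of 5) had 715 and 689 against 713 and 676, and astrocyte ones (1 of 6) 6.15 and 5.98 against 9.34 and 8.18. Their part in the protocadherin values was not tested.

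Whether the genotype difference itself differed between sorts was tested at peaks matched one to one by a reciprocal overlap of 50%, in a limma model of 8 libraries per pair of sorts. Between microglia and NeuN+ nuclei 1 of 7 matched members differed, when 29.3% of all matched peaks did. This was the Pcdhgc3 exon 1 peak, with a change of -1.68 in microglia and 0.23 in NeuN+ nuclei, a difference of 1.91 ± 0.55 (adjusted p = 0.0110). At the Pcdhgc3 promoter the 2 changes were -0.88 and -0.38, and the difference of 0.49 ± 0.27 was not called (adjusted p = 0.195). In-peak, median-of-ratios and quantile scaling gave 0.99, 0.99 and 1.49 there, each called (adjusted p = 0.00918, 0.00747 and 0.000369).

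Between microglia and Olig2+ nuclei 2 of 6 matched members differed, when 15.2% of all matched peaks did. Both belonged to Pcdhgc3. Its promoter changed by -0.88 in microglia and 0.02 in Olig2+ nuclei, a difference of 0.90 ± 0.26 (adjusted p = 0.0260). For the exon 1 peak the changes were -1.68 and 0.13, a difference of 1.81 ± 0.46 (adjusted p = 0.0118). The other 4 matched members, at Pcdhga1 and Pcdhga12, had differences from -0.65 to 0.57 that were not called. The exon 1 difference lost its call without microglia WT replicate 1, Olig2+ WT replicate 1 or Olig2+ SgshKO replicate 2 (adjusted p = 0.0566, 0.0808 and 0.0555). The promoter difference lost its call without either microglia WT library or any 1 of the 4 Olig2+ libraries (adjusted p from 0.0653 to 0.119), with values between 0.84 and 0.95 in those fits.

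Between NeuN+ and Olig2+ nuclei 1 of 11 matched members differed, when 35.0% of all matched peaks did. The Pcdhga12 5' UTR peak had 15.9 and 17.5 tags in WT and 20.9 and 22.9 in SgshKO NeuN+ nuclei, a change of 0.37, and -0.90 in Olig2+ nuclei. The difference was -1.27 ± 0.42 (adjusted p = 0.0173), and -0.74 without Olig2+ SgshKO replicate 2 (adjusted p = 0.162). The upstream Pcdhgc4 peak, called lower in both sorts of nuclei, had changes of -1.37 and -1.21, a difference of 0.16 ± 0.64 (adjusted p = 0.869). The Pcdhac1 and Pcdhac2 promoters and the peak between the alpha and beta arrays had differences of 0.39, 0.43 and -0.05, none called.

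Genes that act on the arrays or on their proteins were taken as a list of 44: 21 architecture and methylation factors, 11 signalling partners and 12 unclustered protocadherins. In microglia 3 of the 76 peaks near their start sites were called, all higher, when 9.80% of all peaks near start sites were called. They belonged to Rad21, a cohesin subunit (62.2 and 75.4 tags in WT, 115 and 167 in SgshKO, log2 change 1.01, adjusted p = 0.0392), to Wiz, a chromatin-binding zinc finger protein (0.96, adjusted p = 0.0301), and to Rest, a repressor of neuronal genes (1.17, adjusted p = 0.0294). The other peaks near the start sites of these genes had negative changes without a call: -0.57 at Rad21, -0.58 and -0.57 at Wiz, and -0.43 and -0.13 at Rest. With in-peak scaling 3 were higher and 6 lower, with median-of-ratios scaling and edgeR 4 and 2, with quantile normalization 2 and 2, and with the replicate block 5 and 2. Of all microglia peaks, in-peak scaling called 5.56% higher and 10.3% lower, median-of-ratios scaling 9.28% and 3.76%, and edgeR 10.2% and 5.25%. Quantile normalization called 7.07% and 4.36%, and the replicate block 9.68% and 6.11%. Shares near start sites alone are not given for these settings. Ctcf, which anchors the loops, had an intron 1 peak 246 bp past the TSS. It had 93.3 and 66.1 tags in WT and 98.7 and 102 in SgshKO (0.35, adjusted p = 0.555). A Ctcf promoter peak at -277 bp had 51.0 and 58.5 against 58.9 and 53.9 tags, overlapping values (0.04). Smchd1, a repressor of the clustered genes, had 231 and 216 against 208 and 250, overlapping values. A weaker Smchd1 peak at -645 bp from the TSS had 24.2 and 21.2 against 12.1 and 13.0 tags and was not called (-0.80, adjusted p = 0.295).

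In NeuN+ nuclei 40 of 86 list peaks were called, 2 higher and 38 lower, when 46.6% of all peaks near start sites were called. Of the 86, 75 were negative, when 86.0% of all NeuN+ peaks near start sites were. The list was therefore not set apart from the table. Smchd1 had 128 and 114 tags in WT and 68.4 and 53.3 in SgshKO (-0.99, adjusted p = 9.1e-05). Nipbl, the cohesin loader, had 53.3 and 48.0 against 27.2 and 36.8 (-0.66, adjusted p = 0.0154), and Wapl, which releases cohesin, 132 and 126 against 103 and 94.6 (-0.38, adjusted p = 0.0184). With in-peak scaling 4 list peaks were higher and 21 lower, with median-of-ratios scaling and edgeR 3 and 25, and with quantile normalization 3 and 6. The Wapl call was lost under each of the 3 scalings, edgeR and DESeq2, and quantile normalization turned its sign (0.18). The Ctcf promoter peak (-0.24, adjusted p = 0.111) and Rad21 (-0.03, adjusted p = 0.878) were not called, and the sign of both turned under in-peak scaling and quantile normalization. A second Ctcf peak, 290 bp past the TSS, fell (-0.58, adjusted p = 0.0192). Ptk2b, a kinase that protocadherin tails bind, had 38.0 and 49.7 against 21.6 and 25.4 (-0.86, adjusted p = 0.00493). In microglia its peak nearest a start site had 130 and 103 against 114 and 89.1 and was not called (-0.20, adjusted p = 0.759). Of 16 peaks of unclustered protocadherins, 15 were negative, when 86.0% of all NeuN+ peaks near start sites were. Of the 16, 6 were called, when 46.6% of all such peaks were, so these peaks were not set apart from the table. All 6 were lower, among them Pcdh19 (82.7 and 83.6 against 30.7 and 34.9 tags, adjusted p = 1.67e-05).

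In Olig2+ nuclei 11 of 76 list peaks were called, 10 higher and 1 lower, when 20.3% of all peaks near start sites were. Ctcf had 124 and 122 tags in WT and 197 and 160 in SgshKO, and rose by a log2 change of 0.52 (adjusted p = 0.00119). The cohesin subunits Stag1 (0.30, adjusted p = 0.00430) and Stag2 (0.66, adjusted p = 0.000273) and the cohesin regulator Pds5a (0.59, adjusted p = 6.61e-05) were also higher. Pcdh7, an unclustered protocadherin, was the 1 lower call, with 13.0 and 8.69 tags in WT and 4.92 and 2.66 in SgshKO (adjusted p = 0.0130). Ptk2b was called higher, unlike in NeuN+ nuclei, at a different peak (66213456 to 66213730). That peak had 18.2 and 18.9 tags in WT and 33.8 and 27.9 in SgshKO (0.70, adjusted p = 0.0304). Rad21 and Wapl were higher in both SgshKO libraries but not called (0.17 each, adjusted p = 0.245 and 0.248). Nipbl and Smchd1 went the other way, lower in both SgshKO libraries and not called (-0.31 and -0.27, adjusted p = 0.0976 and 0.146).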

How the data were processed

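Per the submitters' processing notes, the study used Bowtie2, HOMER and the mm10 build. Versions and roles of these tools: not given in the sources used here. For every sort there is 1 table from the authors, whose peaks were merged over WT and SgshKO, per the peak names. As signal, the authors give each peak's tags, scaled to 10000000 tags per library, per the file headers. Undoing the scaling gave whole reads (100% of values, tolerance 0.01). Of the tag columns, 12 were used and 0 left over. No peak was filtered. Log2(tags + 1) was fitted over each whole table with limma 3.58.1 in R 4.3.3 (intensity trend, two-sided, no covariate), and with a sort by genotype term over matched peaks of each pair of sorts. edgeR 4.0.16 (quasi-likelihood, TMM) and DESeq2 1.42.0 on recovered reads, other pseudocounts, filters and scalings, a replicate block and the omission of each library were alternatives. Of these, only the limma fit over each whole table was tested on simulated data. Changes were planted only in better-covered peaks, so that test does not cover the weaker members. A ± after a log2 change is a standard error and n = 2 per group.

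In each table the peaks named were the highest of each gene group, up to 4 called in each direction by smallest p, the 2 smallest p per pair of sorts, and the peak nearest the TSS of Ctcf, Rad21, Smchd1, Wapl, Nipbl and Ptk2b; others were named after their values were seen. Members and lists were chosen with earlier results of these data known. Symbols were matched to the RefSeq table of GRCm38.p6. No sequence of these genes is shown.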

Additional observations from a re-analysis of the deposited data

Results flagged for a closer look

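The test of the difference between sorts called the genotype change different in 4 comparisons, at 3 peaks. The Pcdhgc3 exon 1 peak (37807110 to 37807310) differed by 1.91 (log2) between microglia and NeuN+ nuclei and by 1.81 between microglia and Olig2+ nuclei, with WT and SgshKO means of 33.0 and 9.97 tags in microglia, 10.7 and 12.5 in NeuN+ and 32.7 and 35.5 in Olig2+ nuclei. The Pcdhgc3 promoter (37806254 to 37806464) differed by 0.90 between microglia and Olig2+ nuclei, with means of 243 and 134 tags in microglia and 77.0 and 78.0 in Olig2+ nuclei. The Pcdhga12 5' UTR peak (37765766 to 37766008) differed by -1.27 between NeuN+ and Olig2+ nuclei, with means of 16.7 and 21.9 in NeuN+ and 17.8 and 9.76 in Olig2+ nuclei.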

How the results depend on the processing

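With a replicate missing, an arm holds 1 library, whose spread limma takes to be like that of the others. Where a result changed, the cause was not tested, apart from fewer libraries or peaks in some fits. The median member peak held 20.5 to 22 reads per library, which limits the precision of the lower peaks. Over all peaks, the difference between replicates 1 and 2 in WT was hardly correlated with that in SgshKO (0.042, 0.0036 and 0.00069). This correlation cannot show a shift common to all peaks. In microglia, replicate 1 had more of its tags in peaks in both genotypes (55.8% against 48.7% in WT, 67.4% against 53.7% in SgshKO). Whether libraries of the same number belong together is therefore not settled. The replicate block gave 8, 6 and 4 called members and 7, 42 and 13 called list peaks in microglia, NeuN+ and Olig2+ nuclei. Of all peaks it called 15.8%, 33.2% and 21.4%. It gave 1, 2 and 1 matched members differing for microglia against NeuN+, microglia against Olig2+ and NeuN+ against Olig2+. The share of all matched peaks that it called is not given.

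Called microglia members, 7 of 28 in the main analysis, numbered 3 of the 17 left without the lowest 25% of peaks (7.42% of all peaks called). There were 12 with in-peak scaling (15.8% of all peaks), 4 with quantile normalization (11.4%) and 1 with DESeq2 (5.28%). Leaving out single replicates gave 0 to 12, with a median change of -1.05 to -0.54. The microglia list count of 3 became 9 with in-peak scaling, 6 with median-of-ratios scaling and 6 with edgeR, and 0 to 12 without single replicates. For NeuN+ members the count of 4 became 2 near start sites only, 10 with in-peak scaling, 7 with median-of-ratios scaling, 8 with edgeR, 1 with DESeq2 and 0 to 2 without single replicates. Near start sites 46.6% of all NeuN+ peaks were called. The NeuN+ median of 0.06 was -0.088 near start sites only, 0.34 with in-peak scaling, 0.26 with median-of-ratios scaling, 0.16 with quantile normalization, and -0.00073 to 0.071 without single replicates. The NeuN+ list count of 40 was 25 with in-peak scaling, 9 with quantile normalization, 10 with DESeq2 and 0 to 24 without single replicates. The Olig2+ count of 4 members became 1 near start sites only, 2 without the lowest 25% of peaks, 2 each with median-of-ratios scaling, quantile normalization and edgeR, 0 with DESeq2, and 0 to 3 without single replicates. Near start sites 20.3% of all Olig2+ peaks were called. Without the lowest 25% of peaks 11 Olig2+ members were left, and 21.5% of all remaining peaks were called. The Olig2+ median of 0.03 was -0.13 near start sites only and -0.11 to 0.18 without single replicates. The Olig2+ list count of 11 was 5 with DESeq2 and 4 to 13 without single replicates. Matched members differing between microglia and NeuN+ nuclei were 0 without the lowest 25% of peaks. They were 4 with in-peak scaling, 4 with median-of-ratios scaling and 2 with quantile normalization. In the main fit 29.3% of all matched peaks of this pair were called. The shares in the other settings, also without single replicates, are not given, so these counts cannot be set against the table. Without single replicates each pair of sorts had 0 to 2.

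Some single peaks changed sign. In microglia, in-peak scaling and quantile normalization gave -0.18 and -0.36 for Smchd1 (0.03 in the main fit). For Wapl they gave -0.015 and -0.048 (0.19 in the main fit). Quantile normalization gave 0.11 for the Nipbl 5' UTR peak, which had -0.09 in the main fit. A stronger Nipbl promoter peak, at -238 bp from the TSS, had -0.43 in the main fit and was not called. In NeuN+ nuclei in-peak scaling and quantile normalization gave 0.057 and 0.33 for Ctcf and 0.27 and 0.52 for Rad21. Rad21 had 0.19 with median-of-ratios scaling, edgeR and DESeq2, and Wapl 0.18 with quantile normalization. The Olig2+ Pcdhga1 peak had 0.024 with median-of-ratios scaling, 0.022 with quantile normalization, 0.046 with edgeR and 0.051 with DESeq2. The Pcdhgc3 promoter difference between NeuN+ and Olig2+ nuclei was -0.013 and -0.14 with median-of-ratios scaling and quantile normalization. Without single replicates the ranges in microglia were -0.64 to 0.14 for the Pcdhga12 5' UTR peak and -0.10 to 0.16 for Smchd1. They were -0.081 to 0.46 for Wapl and -0.83 to 0.65 for the Nipbl 5' UTR peak. In NeuN+ nuclei they were -0.080 to 0.26 for Pcdhb1 and -0.13 to 0.072 for Rad21. In Olig2+ nuclei they were -0.029 to 0.11 for Pcdhb1, -0.34 to 0.26 for Pcdhga1 and -0.020 to 0.26 for Pcdhgb8. Over the named peaks and named differences between sorts and all their settings, 446 values kept direction and side of the threshold, 111 lost a call, 18 gained one and 32 changed sign.

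Several called members lost their call. The microglia Pcdhgc3 promoter did so with a pseudocount of 0.5 (adjusted p = 0.053), and Pcdhga9 and Pcdhgb8 with median-of-ratios scaling (adjusted p = 0.0562 and 0.0672).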
